A study of Mus musculus with 4 samples.

Results

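Cdh5, Cdh2, Cdh13, Ctnna1, Ctnnd1, Jup and Esam encode endothelial cadherins, the catenins that hold them to actin, and an immunoglobulin protein of endothelial junctions. They were chosen by name, and all 7 were found among the 23282 gene symbols counted in endothelial cells (ECs) of mouse dura mater and brain parenchyma. The dura mater is the outer membrane between skull and brain. The mice were of the strain C57BL/6J and 8 weeks old, the labels give no treatment or altered allele, and each tissue had 2 libraries. Cells carrying CD31 (Pecam1) and lacking the leukocyte and red cell antigens CD45 and TER-119 were sorted, after a magnetic bead enrichment in the brain only, and the tissue difference cannot be told apart from that extra step. Nothing states that the libraries came from separate mice, so p-values measure only the spread between these samples, which may be technical.

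Adherens junctions join neighbouring ECs. The extracellular domains of VE-cadherin (Cdh5) bind each other between cells, while its cytoplasmic tail binds p120-catenin (Ctnnd1), which keeps the cadherin at the surface, and either β-catenin (Ctnnb1) or plakoglobin (Jup), which recruit α-catenin (Ctnna1) and through it the actin cortex. In brain vessels these contacts lie beside the tight junctions of the blood-brain barrier.

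Not all cadherins have this tail. T-cadherin (Cdh13) is held in the membrane by a lipid anchor and has no cytoplasmic part for catenins. The last 150 coding bases of both genes are shown to set these ends side by side, from the GENCODE M21 transcripts Cdh5-201 and Cdh13-201 (GRCm38, plus strand, chr8:104142849-104142998 in 1 exon and chr8:119314053-119323402 across 2 exons). Capitals mark the stop codon. In Cdh5 the stretch codes for the end of the cytoplasmic tail, and in Cdh13 for the end of the precursor, whose last residues are replaced by the anchor.
Cdh5: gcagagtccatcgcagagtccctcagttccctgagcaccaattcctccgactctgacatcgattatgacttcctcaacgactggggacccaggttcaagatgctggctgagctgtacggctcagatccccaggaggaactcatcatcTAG
Cdh13: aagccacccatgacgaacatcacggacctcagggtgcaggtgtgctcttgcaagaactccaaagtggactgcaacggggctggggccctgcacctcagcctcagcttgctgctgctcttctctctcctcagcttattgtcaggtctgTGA

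The libraries held 13518973 to 16096203 counts, with 9350 to 11803 symbols detected. All 14 pan-endothelial markers were tested, none with an adjusted p under 0.05. Their summed level was 11260 and 13000 CPM (counts scaled to a common library size) in brain against 10840 and 13040 CPM in dura mater. For 9 of the 14, dura mater and brain libraries did not overlap, 4 with dura mater above and 5 below. Among all genes tested 43.1% did not overlap. Replicates of a tissue correlated at r = 0.54 in brain and 0.672 in dura mater (Pearson, across genes, log2(CPM + 1)). Libraries of different tissues correlated at 0.407 to 0.576, the highest of these above the value of the brain replicates. The median gene differed 3.64-fold between the brain replicates and 2.23-fold between the dura mater replicates. Of 9347 genes tested, 57 (0.61%) had an adjusted p under 0.05 in edgeR's quasi-likelihood test. DESeq2, which estimates the spread between replicates otherwise, called 1259 of 10220 genes (12.3%).

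Of the 7 junction genes, all passed the filter on low counts and 0 passed the edgeR test. An unadjusted p under 0.05 was found for 2, Cdh13 and Esam, against 10% of all genes tested, and DESeq2 called the same 2 genes. Dura mater and brain libraries did not overlap for 4 of the 7 genes, 3 with dura mater above (Cdh5, Cdh13 and Jup) and 1 with dura mater below (Esam). Among all genes tested 43.1% did not overlap, 26.2% with dura mater above and 16.9% below, so 4 of 7 was near the share of all genes. The median log2 fold change of the 7 genes was 0.39, and that of all genes tested was −0.01. In bulk RNA, fewer cells of a type and less RNA per cell cannot be told apart.

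**Figure D1:**
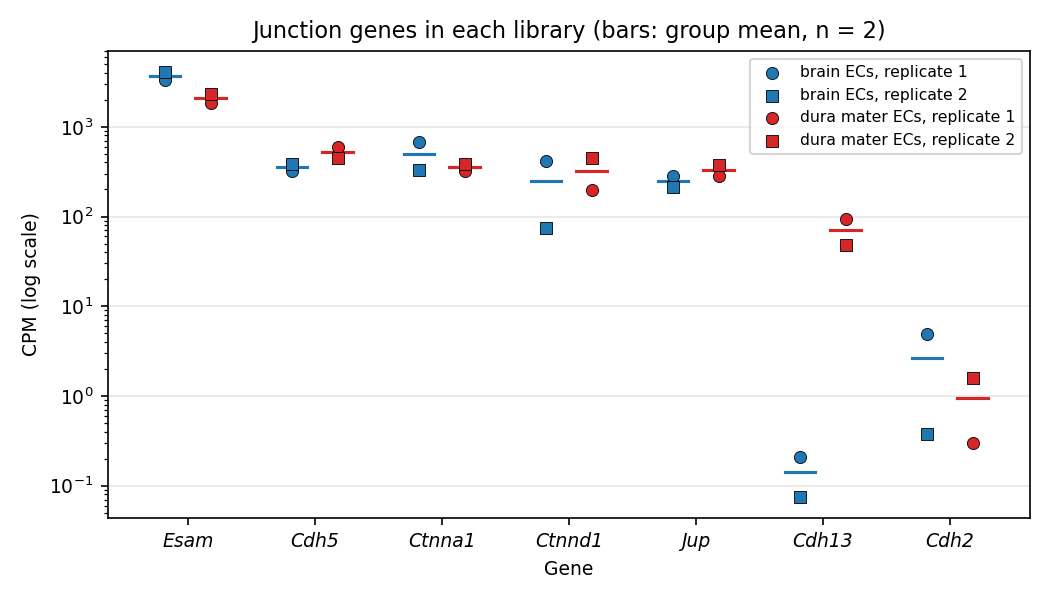
Level of each junction gene in each library, in CPM on a log axis, with 1 point per library and a bar at the tissue mean. Cdh13 separates the tissues most widely, Esam lies higher in both brain libraries, and the brain replicates of Ctnnd1 and Cdh2 lie far apart.

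VE-cadherin itself lies at 104101625 to 104144511 on the plus strand of chromosome 8. Cdh5 was counted at 325 and 387 CPM in brain replicates 1 and 2, and at 591 and 446 CPM in dura mater replicates 1 and 2. Both dura mater libraries lay above both brain libraries. Their means were 519 ± 103 and 356 ± 44.3 CPM (SD, n = 2), which is 1.46-fold. The log2 fold change, dura mater over brain, was 0.54 (SE 0.38, 95% interval −0.38 to 1.46) and missed the threshold (edgeR adjusted p = 0.799). It was positive in all 16 alternative settings, from 0.18 to 0.71. The brain replicates differed 1.19-fold and the dura mater replicates 1.33-fold.

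T-cadherin, which binds adiponectin and low-density lipoprotein, lies on the same chromosome at 118283733 to 119324921, plus strand. Cdh13 was counted 3 times and 1 time in brain replicates 1 and 2, and 1265 and 794 times in those of dura mater. On the CPM scale this was 0.207 (95% Poisson interval 0.0427 to 0.605) and 0.0756 (0.00191 to 0.421) against 94.3 (89.2 to 99.7) and 48.6 (45.3 to 52.1), where these intervals cover counting error only. The gene was near the detection limit in both brain libraries and well counted in both from dura mater. Summed over libraries, 2059 counts in dura mater stood against 4 in brain, a depth-adjusted ratio of 480 with a counting interval of 187 to 1760.

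The fitted log2 fold change of Cdh13 was 7.99 (SE 2.14, 95% interval 2.81 to 13.18), a value that depends on the prior count of 2 because brain was so low. The quasi-likelihood test of edgeR gave an adjusted p of 0.291, above the threshold. In DESeq2 the gene was called, at 8.90 with an adjusted p of 1e-06. Leaving out brain replicate 1 gave an adjusted p of 0.00751 in edgeR, where 6.38% of all genes were called, and leaving out brain replicate 2 gave 0.0193, where 6.05% were called. Over the alternatives the adjusted p ran from 1e-06 to 0.784 and the fold change from 7.34 to 8.90. Cdh13 passed the count filter only through its dura mater libraries.

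Markers of other cells that differ between the tissues stood beside Cdh13 as follows. The 6 lymphatic endothelial markers summed to 123 and 145 CPM in brain and 349 and 603 CPM in dura mater. The brain sums were almost all Flt4, at 122.6 and 144.0 CPM in brain and 177.8 and 246.1 CPM in dura mater. All 4 tested were higher in dura mater in value, and Prox1, Lyve1 and Ccl21a had 0 counts in both brain libraries. The 9 fibroblast markers summed to 7.45 and 51.0 CPM in brain and 370 and 354 CPM in dura mater, with all 4 tested higher in value. Cdh11, the mesenchymal cadherin, was at 0 in every library, and Pdgfra, Lum and Fbln1 had at most 4 counts in any. Dpt had 0 and 3 counts in brain and 434 and 0 in dura mater. The 7 astrocyte markers summed to 51.8 and 8.31 CPM against 438 and 161 CPM, all 3 tested higher in dura mater in value, with Aqp4 at 0 throughout. Gja1 was the most counted, at 51.3 and 7.79 CPM against 271.5 and 150.7 CPM. In dura mater replicates 1 and 2, Slc1a3 had 915 and 74 counts, Slc1a2 863 and 87, Aldoc 256 and 2, and Gfap 189 and 0. The 11 mural markers, which include smooth muscle genes, summed to 710 and 1178 CPM in brain and 1196 and 702 CPM in dura mater, with Acta2 and Myh11 the most counted. Of these 11, all tested, 8 were higher in dura mater in value, 4 of them without overlap. Among all genes tested 26.2% lay higher in dura mater without overlap. Des was the 1 mural gene lower without overlap (72.9 and 102 CPM in brain, 30.7 and 17.4 CPM in dura mater). The pericyte genes Kcnj8 (0 and 0 counts in brain, 468 and 410 in dura mater) and Cspg4 (0 and 1 against 263 and 65) were near 0 in brain. Pdgfrb (355 and 503 against 302 and 2038), Rgs5 (11 and 342 against 2 and 179) and Abcc9 (0 and 404 against 108 and 1384) overlapped. Ccl21a, Lyve1, Prox1, Slc1a3, Slc1a2, Kcnj8, Cspg4, Cd68, Cldn11 and the mural gene Notch3 passed the count filter only through their dura mater libraries. For these genes the higher value in dura mater was set by the filter, which limits the tallies of tested markers. The part of these cells in the Cdh13 counts was not tested.

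Neural (N-)cadherin, found in ECs mainly outside the junction and in mural cells, lies at 16588877 to 16809246 on the minus strand of chromosome 18. Cdh2 had the fewest counts of the 7 genes summed over the 4 libraries, although Cdh13 had fewer in both from brain, with 72 and 5 counts in brain and 4 and 26 counts in dura mater. Levels were 4.97 (95% Poisson interval 3.89 to 6.26), 0.378 (0.123 to 0.882), 0.298 (0.0813 to 0.764) and 1.59 CPM (1.04 to 2.33), respectively. The tissues overlapped, and the replicates of each tissue differed by more than their counting intervals, 13.1-fold in brain and 5.34-fold in dura mater. The log2 fold change was −1.37 (SE 2.44, 95% interval −7.29 to 4.54, edgeR adjusted p = 1), an interval that leaves both directions. Without brain replicate 1 it became 1.01.

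Among the catenins, α-catenin links the complex to actin, and its gene lies at 35118859 to 35254779 on the plus strand of chromosome 18. Ctnna1 was at 676 and 330 CPM in brain and at 324 and 382 CPM in dura mater. Brain replicate 1 stood above the other three libraries, and the tissues overlapped. Means were 503 ± 245 CPM in brain and 353 ± 41.4 CPM in dura mater (SD, n = 2), with a log2 fold change of −0.51 (SE 0.47, 95% interval −1.64 to 0.61, edgeR adjusted p = 0.946). Without brain replicate 1 the value was 0.04. Lrrtm2, on the opposite strand, covers 1.48% of its exon bases, and Lrrtm2 had at most 2 counts.

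p120-catenin binds the membrane-near part of the cadherin tail, and its gene lies at 84600071 to 84650765 on the minus strand of chromosome 2. Ctnnd1 was at 420 and 75.2 CPM in brain and at 197 and 452 CPM in dura mater. Brain replicate 1 and dura mater replicate 2 were high and the others low, so the tissues overlapped. The replicates differed 5.59-fold in brain and 2.30-fold in dura mater. The log2 fold change was 0.39 (SE 0.85, 95% interval −1.67 to 2.44, edgeR adjusted p = 1). It rested on single libraries, being 2.04 without brain replicate 1 (edgeR adjusted p = 0.0326, passing) and −0.45 without brain replicate 2. GENCODE M21 places Gm28635 on the same strand over 61.2% of the exon bases of Ctnnd1. It has no line in the tables, and how shared reads were counted is not given in the sources used here.

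Plakoglobin takes the place of β-catenin on some cadherin tails and also serves desmosomes, which ECs lack. Jup lies at 100368958 to 100397763 on the minus strand of chromosome 11, and was at 280 and 215 CPM in brain and at 284 and 374 CPM in dura mater. The tissues did not overlap, though brain replicate 1 and dura mater replicate 1 were nearly level. Means were 248 ± 46.0 CPM and 329 ± 63.5 CPM (SD, n = 2). The log2 fold change was 0.41 (SE 0.44, 95% interval −0.65 to 1.47, edgeR adjusted p = 0.987) and stayed positive in the 16 alternatives, from 0.16 to 0.56.

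The β-catenin gene itself, which also carries Wnt signals, gave the values against which Jup can be read. Ctnnb1 was at 1768 and 2017 CPM in brain and at 1248 and 1580 CPM in dura mater, so that both brain libraries were above both from dura mater (log2 fold change −0.42, SE 0.29, edgeR adjusted p = 0.786). Per 100 Ctnnb1 counts there were 15.8 and 10.7 Jup counts in brain and 22.7 and 23.7 in dura mater, a 1.75-fold higher mean in dura mater with no overlap. An exact permutation test of 2 against 2 libraries cannot give a p below 0.333, so ratios between genes are given as values without a test. The coding sequences of both genes were 69.4% identical over 2223 aligned bases with a longest shared run of 20 bases. For the 7 genes, only coding transcripts in the basic set of GENCODE M21 were searched. No 50-base word from their last 500 bases occurred in a transcript of another gene. Coding transcripts outside that set, with other 3′ ends, were not searched.

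**Figure D2:**
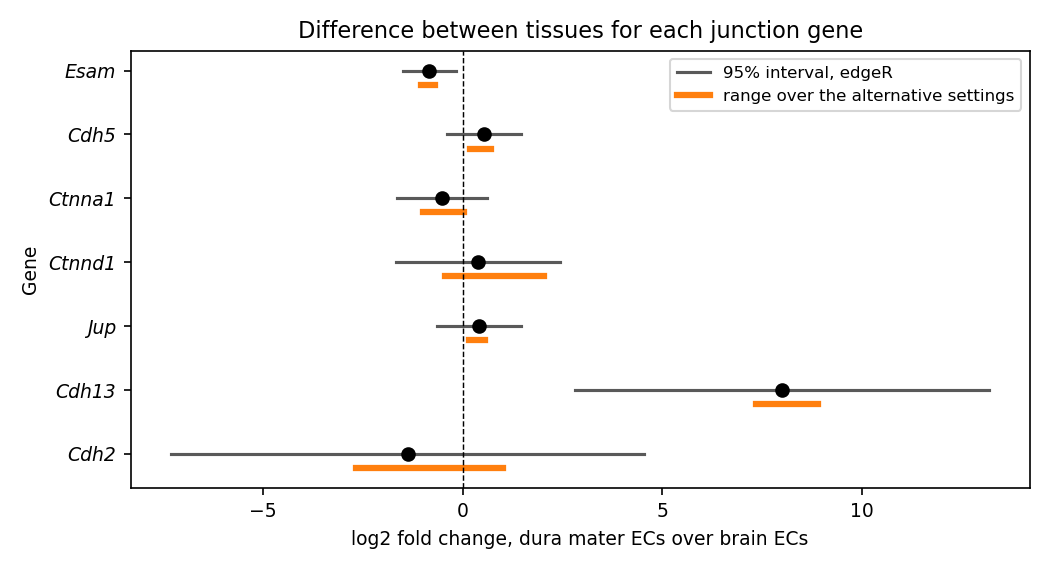
Log2 fold change of each junction gene, dura mater over brain, as a point with its 95% edgeR interval (grey) and the range over the alternative settings (orange). The intervals of Cdh13 and Esam leave out 0, and those of the other 5 genes include it. Each interval is built from the F statistic of the test, so it restates the unadjusted p. After adjustment 0 of the 7 genes passed in edgeR.

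ESAM, the immunoglobulin adhesion molecule of endothelial tight junctions, also sits on platelets. Its gene lies at 37528078 to 37538319 on the plus strand of chromosome 9. Esam was at 3343 and 4080 CPM in brain and at 1845 and 2329 CPM in dura mater. Both brain libraries were above both dura mater libraries, and the replicates of a tissue differed by 1.22-fold in brain and 1.26-fold in dura mater. Means were 3711 ± 521 CPM and 2087 ± 342 CPM (SD, n = 2), 1.78-fold higher in brain.

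On the log2 scale Esam differed by −0.83 (SE 0.28, 95% interval −1.50 to −0.16), with an adjusted p of 0.432 in edgeR, above the threshold. The gene was called by DESeq2 (−0.95, adjusted p = 0.0293) and with edgeR's newer dispersion estimate (adjusted p = 0.0446, where 3.27% of all genes were called). The value was negative in all 16 alternatives, from −1.03 to −0.69, with adjusted p from 0.0293 to 0.771. Of all counts in a library Esam took 0.335% (95% Wilson interval 0.332 to 0.338) and 0.391% (0.387 to 0.394) in brain against 0.183% (0.181 to 0.185) and 0.236% (0.234 to 0.239) in dura mater. By count it ranked 19 and 16 among the symbols of the brain libraries and 50 and 39 in those of dura mater. The 6 platelet markers summed to 130 and 0.680 CPM in brain and 121 and 33.3 CPM in dura mater, which overlap. Hemoglobin and other erythroid markers summed to 18010 and 25690 CPM in brain and 1496 and 762 CPM in dura mater. Of the 6, 5 were tested and 3 were called lower in dura mater in edgeR, where 17 of all 9347 genes tested were called lower. The part of either in the Esam counts was not tested.

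Set against the sum of the pan-endothelial markers, 7 of which were higher and 7 lower in dura mater in value, Esam again did not overlap. Per 1000 counts of the 14 pan-endothelial markers there were 297 and 314 Esam counts in brain and 170 and 179 in dura mater. Cdh5 gave 28.8 and 29.8 in brain and 54.5 and 34.2 in dura mater. Per 100 Esam counts there were 9.72 and 9.50 Cdh5 counts in brain and 32.1 and 19.1 in dura mater, without overlap and 2.67-fold higher in dura mater. Against Pecam1, the antigen used for the sort, Cdh5 overlapped between tissues, with 56.1 and 31.8 counts per 100 in brain and 55.0 and 30.8 in dura mater. Esam did not overlap against Pecam1, with 578 and 335 per 100 in brain and 171 and 161 in dura mater.

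The 7 genes were also compared as parts of their own sum within each library. Esam supplied 66.2% and 80.2% of their summed counts in brain and 55.3% and 57.7% in dura mater. Cdh5 supplied 6.43% and 7.61% in brain and 17.7% and 11.1% in dura mater, a share that moves with the large part of Esam. Of the sum without Esam, Cdh5 supplied 19.0% and 38.4% in brain and 39.7% and 26.2% in dura mater, which overlap. Ctnnd1 supplied, of all 7, 8.33% and 1.48% in brain and 5.90% and 11.2% in dura mater, overlapping. Without Esam the 6 genes summed to 1707 and 1009 CPM in brain and 1490 and 1704 CPM in dura mater, which overlap. These are shares of 3′ tags, not divided by transcript length, and they compare libraries rather than the numbers of transcripts of different genes.

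**Figure D3:**
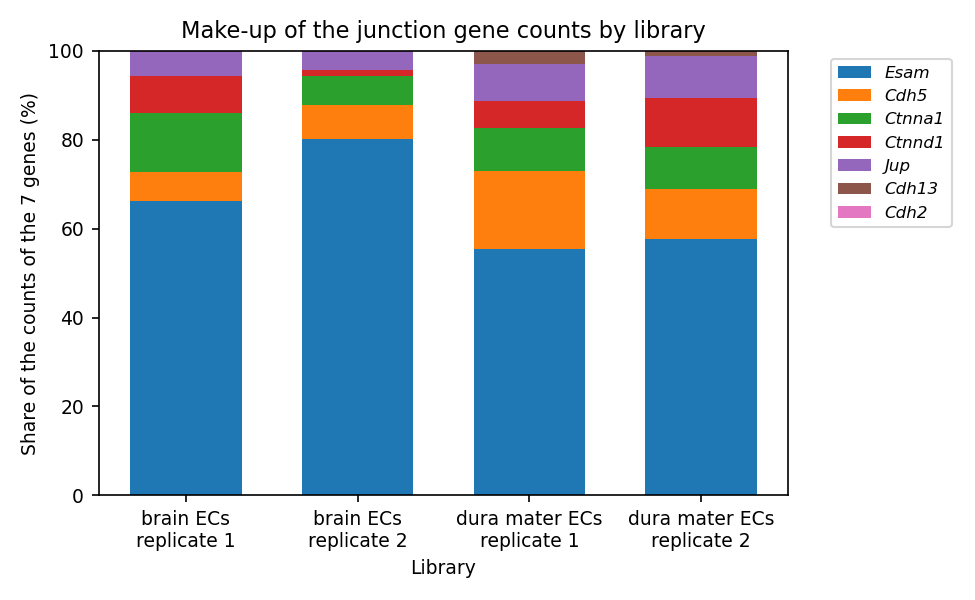
Share of the summed counts of the 7 genes taken by each gene in each library, in percent, with bars starting at 0. Esam takes the largest part in all 4 libraries and a larger one in both from brain, and Cdh2 is too low to be seen.

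The catenins were also set against their cadherin. Per 100 Cdh5 counts there were 544 and 521 Ctnnb1 counts in brain and 211 and 354 in dura mater, without overlap and 1.88-fold higher in brain. Ctnnd1 gave 129 and 19.4 in brain and 33.2 and 101 in dura mater, Ctnna1 208 and 85.3 against 54.7 and 85.7, and Jup 86.3 and 55.5 against 48.0 and 83.8. These 3 catenins overlapped between tissues.

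By Euclidean distance of log2(CPM + 1) over the 4 libraries, the genes with levels nearest to those of Cdh5 were Mat2a (distance 0.31), Mylk (0.33) and Clstn1 (0.34). The values were not centred, so the distance weighs overall level as well as the pattern over libraries. The nearest to Esam were Sparc (0.57), Podxl (0.62) and Epas1 (0.70). Cdh13 was followed by Mlxip (0.19), Oaf (0.24) and Mogs (0.25), and Cdh2 by Gemin8 (0.42), Rabl2 (0.52) and Ccl27b (0.53). For the catenins they were Capn2, Arf1 and Sdcbp for Ctnna1 (0.31 to 0.53), Serpinh1, Nfia and Sdf4 for Ctnnd1 (0.92 to 1.01), and Ywhaz, Rps4x and Rps18 for Jup (0.34 to 0.38). The nearest gene of Ctnnd1 lay farther from it than that of any of the other 6.

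Further components of adherens junctions include β-catenin, plakophilins, nectins and actin linkers. Of 21 such genes 13 were tested, 0 passed in edgeR, 7 were higher and 6 lower in value, 6 did not overlap, a share near the 43.1% of all genes, and the median log2 fold change was 0.13. α-Actinins crosslink actin, and Actn1 was at 183 and 160 CPM in brain and 447 and 314 CPM in dura mater (1.15 on the log2 scale, edgeR adjusted p = 0.466), while Actn4 overlapped (0.35, adjusted p = 0.956). Ctnnbip1, which keeps β-catenin from its transcription factors, was at 472 and 346 CPM in brain and 167 and 91.5 CPM in dura mater (−1.66, edgeR adjusted p = 0.391). It was called in 1 of 16 alternatives, that without brain replicate 2. Its log2 fold change ran from −2.30 to −1.31 over the alternatives. The actin-binding Lima1 (log2 fold change 0.13) and the p120-related Pkp4 (0.51) overlapped. Ctnnal1, an α-catenin relative chosen after its values were seen, had 1 and 0 counts in brain and 369 and 2199 in dura mater (edgeR adjusted p = 0.257). Ctnnal1 passed the count filter only through its dura mater libraries, and was called in 4 of 15 alternatives. They included DESeq2 (adjusted p = 8.21e-06, where 12.3% of all genes were called) and edgeR without a filter (0.0279, where 2.39% were called). The others left out brain replicate 1 or 2, with log2 fold changes of 9.15 and 8.57, respectively.

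Of the 31 other cadherins and protocadherins named by a number, 18 were at 0 in every library, 5 were tested and 0 passed in edgeR. Protocadherins share the cadherin repeats but not the catenin-binding tail. Pcdh17 had 0 and 1 counts in brain and 2323 and 879 in dura mater (edgeR adjusted p = 0.131), and Pcdh7 had 4 and 1 against 501 and 828 (adjusted p = 0.466). Both passed the count filter only through their dura mater libraries. Pcdh17 was called in 6 of 15 alternatives, among them fits with brain replicate 1 or 2 left out (log2 fold changes 9.04 and 9.71). DESeq2 also called it (adjusted p = 1.94e-07, where 12.3% of all genes were called), as did edgeR's newer dispersion estimate (0.0327, where 3.27% were called). Pcdh7 was called in DESeq2 alone (adjusted p = 0.000283). Pcdh19 and Pcdh1 had the opposite order, Pcdh19 with 143 and 136 CPM in brain and 92.3 and 38.0 CPM in dura mater, and Pcdh1 with 96.2 and 97.4 CPM against 3.73 and 31.9 CPM (edgeR adjusted p = 0.835 and 0.676). Pcdh12, an endothelial protocadherin, was counted only in replicate 2 of each tissue, at 24.8 and 6.98 CPM, and Cdh4, which was not tested, only in dura mater replicate 2, with 368 counts. The epithelial cadherin Cdh1 stayed at or under 0.895 CPM in all 4 libraries.

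Regulators that act on VE-cadherin, such as phosphatases, kinases and small GTPases, numbered 24, of which 19 were tested and 0 passed in edgeR, with 10 higher and 9 lower in value and a median of 0.02. Ptprb, the phosphatase that dephosphorylates the complex, was at 1440 and 1176 CPM in brain and 1623 and 1606 CPM in dura mater (log2 fold change 0.30, edgeR adjusted p = 0.952). Rasip1 (0.21), Rap1b (0.26) and Rac1 (−0.13), of the GTPase branch that tightens junctions, overlapped between tissues. Ptprm and Arhgap29 did not overlap and were higher in brain in value, with log2 fold changes of −0.66 and −0.59 (edgeR adjusted p = 0.862 and 0.786). Tiam1, an exchange factor for Rac1 chosen after its values were seen, was at 577 and 310 CPM in brain and 34.9 and 41.4 CPM in dura mater. Its log2 fold change was −3.53 (SE 0.56, edgeR adjusted p = 0.0694), with adjusted p from 1.46e-09 to 0.108 over the 16 alternatives, 7 of which called it, among them edgeR without brain replicate 1 (0.00176) or 2 (1.46e-09).

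Esam has relatives among the immunoglobulin proteins of endothelial contacts. Of 9 such genes 8 were tested and 0 passed in edgeR, with 6 higher and 2 lower in value and a median log2 fold change of 0.72. Pecam1 was at 579 and 1219 CPM in brain and 1076 and 1447 CPM in dura mater (0.49, edgeR adjusted p = 0.942). The junctional adhesion molecules F11r (−0.32) and Jam2 (0.10) overlapped, as did Icam2 (0.94), a leukocyte ligand, while Jam3 (1.02) did not. Mcam, also on mural cells, was at 16.6 and 58.1 CPM in brain and 124 and 175 CPM in dura mater (2.00, edgeR adjusted p = 0.508). It was called in 1 of 16 alternatives, that without brain replicate 2. Its log2 fold change ran from 1.31 to 3.10 over the alternatives.

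**Figure D4:**
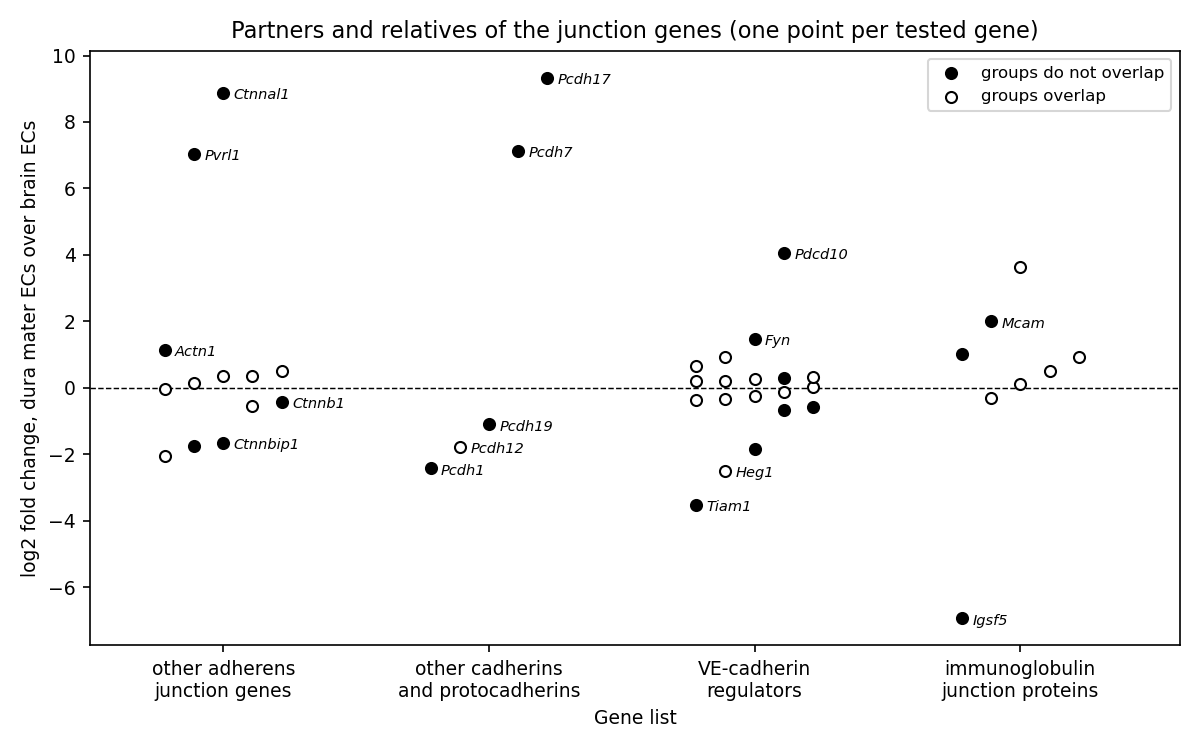
Log2 fold change, dura mater over brain, of each tested gene of 4 lists around the junction genes, with filled points where the tissues do not overlap and open points where they do. The medians of the 4 lists lie between −1.10 and 0.72, and the 5 tested cadherins and protocadherins run from −2.43 to 9.33. Pcdh17 and Ctnnal1 have the highest values and Igsf5 the lowest, all from genes near 0 counts in 1 tissue.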

How the data were processed

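ECs of mouse brain parenchyma and dura mater were profiled by 3′ tag sequencing of total RNA (QuantSeq, NextSeq 500). For each library the authors deposited unscaled whole-number counts, 1 line per gene symbol. The submitters' processing notes name Bowtie2, edgeR and the build mm10, whereas the study's methods name TopHat and cufflinks. The counting tool, the annotation, the use of strand and of molecular identifiers are not given in the sources used here.

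Groups and replicate numbers were taken from the sample titles. The count columns carry other names and numbers, and each file was assigned to its sample as recorded at deposition. Counts were tested as deposited with edgeR 4.0.16 in R 4.3.3 (quasi-likelihood, TMM, filterByExpr with a minimum count of 10 and total of 15, tissue as the only term, Benjamini-Hochberg over all genes tested, prior count 2), where the threshold was an adjusted p under 0.05. The SE is the size of the log2 fold change over the square root of F. CPM uses the TMM-adjusted library size. The 16 alternatives include DESeq2 1.42.0 and limma-voom (3.58.1). Scripts were tested on simulated data. Of the symbols, 79 lines were repeats, each tested as its own gene, and 5 list genes were found under older symbols. Positions and overlaps are from GENCODE M21 (GRCm38).

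The 7 genes and all gene lists were chosen with earlier results of these data known. Named genes were these 7, the genes of each partner list with an adjusted p under 0.05 or else at most 6 with the highest mean CPM, and the 3 tested genes nearest to each of the 7. Exceptions are marked. Intervals of fold changes come from the edgeR fit and include the spread between replicates, whereas Poisson, Wilson and count-ratio intervals cover counting error only.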

Additional observations from a re-analysis of the deposited data

How the results depend on the processing

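Each of 16 alternatives was run on the 7 junction genes and on 25 other named genes that could be tested, and the distances between gene levels were not recomputed. The 7 genes gave 110 values, of which 100 kept their direction and side of the threshold, 6 passed only under the alternative and 4 changed sign. The other named genes gave 396 values, of which 360 kept both, 20 passed only under the alternative and 16 changed sign. Of the 7 genes, 0 passed in edgeR, 2 in DESeq2 (Cdh13 and Esam), 1 with edgeR's newer dispersion estimate (Esam), and 0 to 2 with 1 library left out, where the lone library of a tissue was assumed to vary like the other tissue. Over all genes 57 passed in edgeR, 1259 in DESeq2, 306 with the newer dispersion estimate, 326 without a filter on low counts, 141 with at least 10 counts in every library, 224 with a replicate block, and 80 to 740 with 1 library left out. With at least 10 counts in every library, Cdh13, Cdh2, Pcdh17, Pcdh7, Pcdh12 and Ctnnal1 could not be fitted. The replicate numbers come from the sample titles, differ from the names of the count columns and are not stated to pair libraries, and deviations of same-numbered libraries correlated at −0.0153, so the replicate block was kept as an alternative. Under the block 0 of the 7 genes passed, while Pcdh17 and Tiam1 did (adjusted p = 0.0428 and 0.00225). The median log2 fold change of all genes moved from −0.01 to 0.22 in DESeq2, 0.28 in limma-voom, 0.13 with upper-quartile scaling, 0.27 without the filter, 0.25 with the block, and 1.03, 0.95, 0.14 and −0.19 without brain replicate 1, brain replicate 2, dura mater replicate 1 and dura mater replicate 2. Dura mater was higher in 40 and lower in 17 of the genes called in edgeR, against 40 and 40 in limma-voom and 75 and 66 with at least 10 counts in every library. Lima1 turned to −0.03 in DESeq2, −0.01 with RLE scaling and −0.02 with the block, and Jam2 to −0.02 in DESeq2. With 1 library left out, log2 fold changes that changed sign ran from −2.68 to 1.01 for Cdh2, −1.0 to 0.04 for Ctnna1, −0.45 to 2.04 for Ctnnd1, −0.07 to 0.52 for Actn4, −0.88 to 0.57 for Lima1, −0.12 to 1.4 for Pkp4, −6.44 to 4.69 for Pcdh12, −0.34 to 0.45 for Rasip1, −0.61 to 0.14 for Rac1, −0.24 to 0.53 for Rap1b, −0.74 to 0.02 for F11r and −0.22 to 0.35 for Jam2. The cause of these moves was not tested. With 2 libraries per tissue and the spread seen here, the intervals of Cdh2 and Ctnnd1 leave changes of several fold in either direction undetectable.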
